A study of Mus musculus with 6 samples.

Results

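The genes described here are the voltage-gated ion channels, their relatives in the potassium channel superfamily, and the connexins, in mouse HL-1 cells. They were chosen by symbol alone: every protein-coding gene of the deposited tables whose symbol starts with Kcn, Scn, Cacna, Cacnb or Cacng, or names an Hcn channel or a connexin (Gja, Gjb, Gjc or Gjd). The rule found 113 of the 22913 genes. No measured value entered it, though it was chosen with earlier results of these data known. HL-1 is a line derived from a mouse atrial tumour and is used as a model of beating heart muscle cells. The study transfected it with a control plasmid (Ctrl, 3 libraries) or with an HSPA1A overexpression plasmid (HSPA1A, 3 libraries). HSPA1A encodes the inducible heat shock protein HSP70, and the labels name the human gene. Both groups were treated with the same lipid reagent, grown in DMEM with fetal bovine serum and harvested 48 h later for stranded sequencing of polyadenylated RNA. The labels give neither the share of cells that took up the plasmid nor the origin of each replicate, so the p-values rest on a spread between libraries that may be technical.

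Ion channels set the heartbeat. Voltage-gated sodium channels carry the fast upstroke of the action potential, L-type calcium channels carry the plateau and trigger contraction, and several families of potassium channel end it. HCN channels carry the pacemaker current, and connexins form the gap junctions that pass the impulse from cell to cell. Most voltage-gated channels combine 1 pore-forming alpha subunit with auxiliary subunits that control trafficking to the membrane and gating.

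The label was checked against markers before the channels were read. Of 17 atrial markers, 12 were in the tables. The 5 absent ones were Nppa, Myl7, Sln, Myh6 and Bmp10, and their level is not known here. Of the 12, 5 reached a mean of 1 FPKM (fragments per kilobase of transcript, scaled for library size) over the Ctrl libraries. These were the calcium pump Atp2a2 (72.42 to 92.04 FPKM over the 6 libraries), cardiac troponin T Tnnt2 (23.68 to 41.03), and the transcription factors Nr2f2 (12.23 to 14.15), Gata4 (7.44 to 9.23) and Nkx2-5 (1.74 to 2.56). Among the others, the atrial light chain Myl4 had 175 reads and the troponin Tnni1 had 127, while 4 genes that working heart muscle expresses strongly were close to 0. Over all 6 libraries, Actc1 had 3 reads, Actn2 had 1, Tnni3 had 7 and Ryr2 had 11. The muscle filament desmin Des, shared by heart, smooth and skeletal muscle, was at 166.59 to 205.85 FPKM. Genes on the lists for other cell types were abundant too, among them the keratin Krt19 (141.51 to 240.29), the collagens Col3a1 (66.24 to 89.81) and Col1a2 (48.3 to 54.24), and the neuronal gene Stmn2 (36.52 to 52.24). Of the genes in the tables, 4 of 7 fibroblast, 3 of 5 neuronal and 2 of 5 smooth muscle genes reached 1 FPKM in Ctrl. These included Tubb3 (17.93 to 31.36), Acta2 (19.59 to 26.53) and Col1a1 (8.96 to 12.67). Others on those lists were near 0, with 1 read of Lum, 2 of Rbfox3 and 8 of Myh11. The 4 endothelial markers in the tables summed to at most 0.15 FPKM. The atrial markers were thus mixed, with some abundant and others near 0, and the cells are called HL-1 here as a name only.

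The libraries held 23849656 to 26897086 reads on genes. Hspa1a, the mouse counterpart of the targeted gene, was at 0.491 ± 0.166 CPM (counts scaled for library size; SD, n = 3) in Ctrl and 0.640 ± 0.160 in HSPA1A, with a log2 fold change of 0.39 that missed the threshold (adjusted p = 0.795, the quasi-likelihood test of edgeR, Benjamini-Hochberg adjusted over all genes tested). RNA from the human plasmid gene is counted here only where a read also matches the mouse genome. HSPA1A replicate 2 stood apart from the other 2 libraries of its group: on the leading principal component of all tested genes, which held 34.3% of the variance, it lay at -15.1 beside the Ctrl libraries (-8.27, -6.58 and -4.33), while HSPA1A replicates 1 and 3 lay at 15.9 and 18.3. Results that rest on that library are given with and without it.

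The coding sequences show what the families share. The potassium channel signature is the stretch of the pore loop whose backbone lines the selectivity filter. Its codons are shown in capitals below for 3 potassium channels of different subfamilies that are described below, with 9 bases on each side, in the build GRCm38 and the GENCODE M21 annotation. The 2-pore-domain channel Kcnk2 carries the signature in each of its pore loops.
Kcnk2, first pore loop, across an exon junction on chromosome 1, minus strand: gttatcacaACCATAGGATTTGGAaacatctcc
Kcnk2, second pore loop, exon 5, chr1:189256572-189256604, minus strand: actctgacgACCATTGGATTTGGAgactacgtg
Kcnf1, exon 1, chr12:17175052-17175084, minus strand: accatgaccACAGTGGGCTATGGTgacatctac
Kcnh2, exon 7, chr5:24325546-24325578, minus strand: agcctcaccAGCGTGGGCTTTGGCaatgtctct

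In Kcnk2 and Kcnf1 the first codon encodes threonine, and in Kcnh2 it encodes serine. Searched on the coding strand, in frame, as a threonine codon, any codon, a glycine codon, a codon for tyrosine, phenylalanine or leucine, and a glycine codon, the pattern was in 45 of the 53 pore-forming potassium channel genes (84.9%) and in 2.01% of the 21584 mouse genes with a complete coding sequence. With serine also allowed first, it was in 53 of 53 and in 5.43% of all genes. It was then also in 4 of 42 genes for sodium channels, calcium channels or auxiliary subunits of voltage-gated potassium channels (9.52%). Kcnh2 also matched at codon 601, before the match shown, so a match alone does not mark a selectivity filter. The 3 Hcn genes in the tables, which encode pacemaker channels, held neither form.

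Connexins are marked instead by 3 cysteines in each of their 2 extracellular loops, which form the disulfides that let half-channels of neighbouring cells dock. The first-loop cysteine codons are in capitals below for 3 connexins with enough reads to test.
Gja1, exon 2, chr10:56387697-56387750, plus strand: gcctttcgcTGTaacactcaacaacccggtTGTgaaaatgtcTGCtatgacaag
Gjc1, exon 3, chr11:102800975-102801028, minus strand: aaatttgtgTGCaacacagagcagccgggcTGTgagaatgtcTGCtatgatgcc
Gja5, exon 3, chr3:97050779-97050832, plus strand: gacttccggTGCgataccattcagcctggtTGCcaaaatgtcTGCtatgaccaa

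The spacing of the capitals, with 6 codons between the first cysteines and 3 before the last, was the same in all 10 connexins. It was in 1 of the 102 other channel genes and in 2.09% of all genes.

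Few of the 113 genes were expressed at a level that allows a test. In Ctrl, 12 had a mean of at least 1 FPKM, 12 lay from 0.1 to 1 FPKM and 84 lay below 0.1. The remaining 5 had no FPKM value and at most 4 reads. Over all 6 libraries together, 54 genes had under 10 reads. A filter on low counts left 27 genes to test, and none of the 86 left out had more than 53 reads in all.

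**Figure D1:**
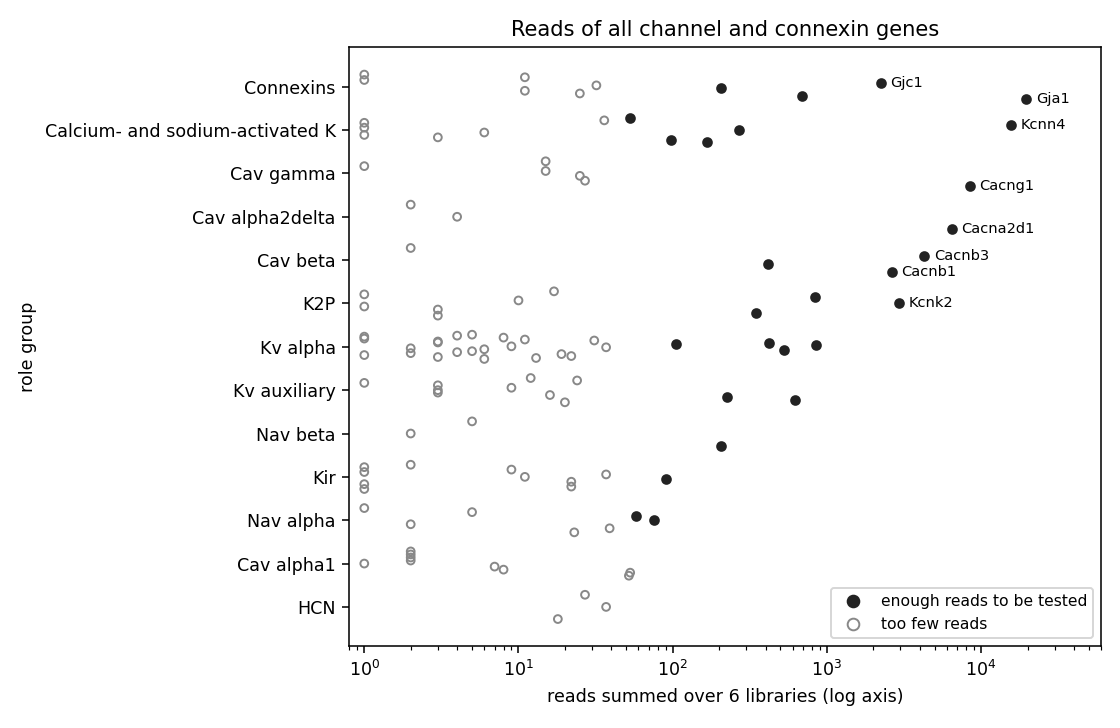
Reads over all 6 libraries for each of the 113 genes, by functional group, on a log axis. The calcium-activated potassium, connexin and auxiliary calcium channel groups each hold genes far above the rest, while no calcium channel alpha1, HCN or inward rectifier gene passes 100.

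A handful of genes made up most of the channel RNA. Of the FPKM summed over all members in Ctrl, Kcnn4 held 27.8%, Kcnn4 and Cacng1 together 53.1%, and these with Gja1 76.8%. The ranges of neighbours in this order overlapped over the 6 libraries. Within each of the 6 libraries Kcnn4 was the highest, while Cacng1 and Gja1 changed places between libraries. Below them came a gap: the Ctrl mean of Gja1 was 4.46 times that of Cacnb3, with no overlap. Cacnb3 in turn lay above Gjc1 in every library. Gjc1, Cacna2d1, Cacnb1 and Kcnk2 overlapped one another from neighbour to neighbour, at 3.35 to 5.87 FPKM. Kcnk5, Kcnf1, Kcnk12 and Kcnab2 formed the last overlapping run above 1 FPKM in the Ctrl mean.

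**Figure D2:**
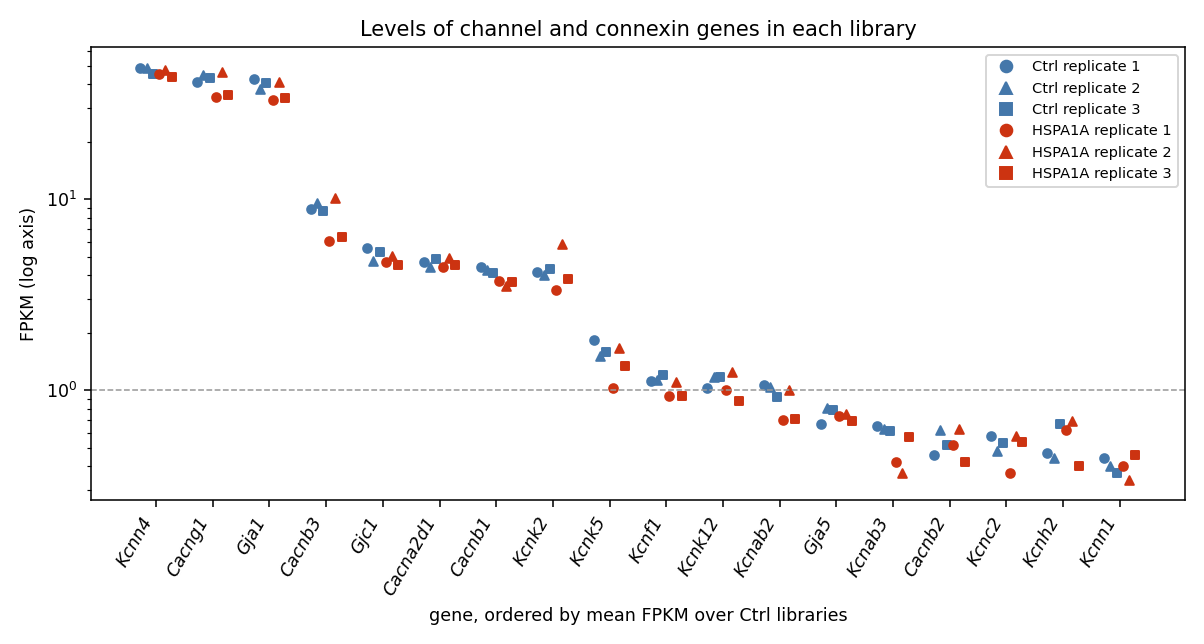
FPKM in each of the 6 libraries for the most abundant genes, on a log axis, ordered by the Ctrl mean. Kcnn4, Cacng1 and Gja1 lie at 33.3 to 48.7 FPKM, apart from Cacnb3 at 6.07 to 10.17 and from all genes after it.

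Among the genes analysed, calcium channels were represented by their auxiliary subunits and hardly by their pores. The 9 alpha1 genes analysed, which encode the pore and voltage sensor, shared 129 reads over the 6 libraries. The 6 gamma genes had 8501, the 4 beta genes 7325 and the 3 alpha2delta genes 6443. The cardiac L-type pore Cacna1c had 1, 3 and 1 reads in Ctrl and 2, 0 and 1 in HSPA1A. The pacemaker L-type pore Cacna1d had 7 reads in all and the T-type pore Cacna1g had 2. The neuronal pores Cacna1b and Cacna1a led the group with 53 and 52 reads. None of the 9 passed the filter on low counts, and with reads this few a change in level was not detectable.

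Cacng1 (chr11:107703218-107716522, minus strand) encodes the gamma subunit of the skeletal muscle calcium channel. It stood at 41.22, 44.81 and 43.38 FPKM in Ctrl and at 34.32, 46.24 and 35.18 in HSPA1A. HSPA1A replicates 1 and 3 were below every Ctrl library and replicate 2 was above every one, so the groups overlapped. Its log2 fold change was -0.11 (95% interval -0.30 to 0.089), short of the threshold (adjusted p = 0.784, edgeR). In bulk RNA, fewer cells of a type and less RNA per cell cannot be told apart. The next gamma gene, Cacng6, lay near 0, at 0.0 to 0.12 FPKM over the 6 libraries.

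Of the beta subunits, which bind the alpha1 pore inside the cell and carry it to the membrane, Cacnb3 was highest. Cacnb3 (chr15:98630840-98644529, plus strand) was at 8.9, 9.58 and 8.68 FPKM in Ctrl and at 6.07, 10.17 and 6.36 in HSPA1A. It showed the same arrangement as Cacng1: replicates 1 and 3 were low and replicate 2 high, beyond the Ctrl range on both sides. Across all 6 libraries the log2 fold change was -0.21 (SE 0.148) with an adjusted p of 0.734 (edgeR).

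Cacnb1, the beta subunit of skeletal muscle, differed from that pattern. It was at 4.45, 4.26 and 4.11 FPKM in Ctrl and at 3.75, 3.5 and 3.71 in HSPA1A, and here replicate 2 was the lowest. The groups did not overlap, yet the log2 fold change of -0.17 (95% interval -0.34 to 0.0055) did not pass (adjusted p = 0.597, edgeR). Cacnb2, the main beta subunit of heart muscle, was lower than both, with a Ctrl mean of 0.533 ± 0.0808 FPKM (SD, n = 3) against 0.523 ± 0.105 in HSPA1A. The Ctrl mean of Cacnb1 was 8.01 times that of Cacnb2, with no overlap. Cacnb3 made up 64.4% to 66.3% of the beta FPKM in Ctrl, 58.7% and 60.6% in HSPA1A replicates 1 and 3, and 71.1% in HSPA1A replicate 2.

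Cacna2d1, the alpha2delta subunit of skeletal and heart muscle channels, had the narrowest interval of the tested calcium channel genes. It was at 4.72, 4.41 and 4.89 FPKM in Ctrl and at 4.45, 4.92 and 4.53 in HSPA1A. The log2 fold change of 0.043 had a 95% interval of -0.089 to 0.18 (adjusted p = 0.869, edgeR).

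Sodium channels were sparse, with 204 reads over the 6 libraries for the 7 pore genes together. Scn7a, a sodium-sensing relative of the voltage-gated pores, had 6, 10 and 17 reads in Ctrl and 9, 12 and 4 in HSPA1A. The groups overlapped, and the log2 fold change of -0.34 had a 95% interval of -1.40 to 0.73 (adjusted p = 0.877, edgeR). Scn4b, the beta subunit that promotes resurgent sodium current, had 5 reads.

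Potassium channels summed to 56.62 to 59.58 FPKM in the Ctrl libraries, and 1 gene dominated them. Kcnn4 (chr7:24370263-24386690, plus strand) encodes the intermediate-conductance calcium-activated channel, known from red blood cells, T cells, fibroblasts and smooth muscle that divides. It was at 48.7, 48.47 and 45.49 FPKM in Ctrl and at 45.46, 47.7 and 43.77 in HSPA1A, and made up 78.9% to 83.8% of the potassium channel FPKM in every library. The log2 fold change was -0.0021 (95% interval -0.12 to 0.11, adjusted p = 0.992, edgeR). Its interval is the narrowest of the tested channels. The Ctrl mean of Kcnn4 was 118 times that of Kcnn1, its small-conductance relative.

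The large-conductance channel Kcnma1 had 168 reads and its smooth muscle subunit Kcnmb1 had 98. Kcnma1 had a log2 fold change of -0.11 (adjusted p = 0.921, edgeR). Kcnu1, the sperm potassium channel, had 7, 6 and 6 reads in Ctrl and 13, 11 and 10 in HSPA1A. The groups did not overlap, at very low counts. The log2 fold change of Kcnu1 was 0.89 (SE 0.360), with an unadjusted p of 0.0318 and an adjusted p of 0.543 (edgeR). DESeq2 gave it an unadjusted p of 0.172.

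The 2-pore-domain channels carry background potassium current. Kcnk2, opened by stretch and lipids and known from the atrium, was at 4.16, 4.01 and 4.3 FPKM in Ctrl and at 3.35, 5.87 and 3.83 in HSPA1A. In FPKM, replicate 2 was above and the other 2 were below the Ctrl range. In CPM, replicate 3 (18.0) lay within the Ctrl range (17.6 to 19.0). Its log2 fold change was 0.12 over 6 libraries and -0.13 without HSPA1A replicate 2, and neither passed (adjusted p = 0.859 and 0.366, edgeR).

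Kcnk5, an acid-sensitive channel, was at 1.83, 1.52 and 1.58 FPKM in Ctrl and at 1.03, 1.66 and 1.34 in HSPA1A, with a log2 fold change of -0.23 (adjusted p = 0.734, edgeR). Kcnk12, which gives little current when expressed by itself, ranged from 0.88 to 1.25 FPKM with overlapping groups. Kcnk3, an acid-sensitive channel of the atrium, had 10 reads in all.

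Of 26 voltage-gated alpha subunits, only Kcnf1 reached 1 FPKM. Kcnf1 encodes a silent subunit, which forms no channel alone and modifies partners of another subfamily. It was at 1.12, 1.13 and 1.21 FPKM in Ctrl and at 0.93, 1.1 and 0.94 in HSPA1A, so all HSPA1A libraries were lower. The log2 fold change of -0.16 did not pass (adjusted p = 0.738, edgeR).

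Kcnh2, the pore of the rapid delayed rectifier, was at 0.47, 0.44 and 0.67 FPKM in Ctrl and at 0.62, 0.69 and 0.4 in HSPA1A. The groups overlapped (log2 fold change 0.16, adjusted p = 0.876, edgeR). Its relative Kcnh1 had 105 reads and the largest negative log2 fold change of the tested genes, -0.52, with a 95% interval of -1.21 to 0.16 (adjusted p = 0.669, edgeR). The transient outward genes analysed were nearly silent: Kcna4 had 22 reads, Kcnd2 had 9 and their partner Kcnip2 had 1. Kcne1, partner of the slow delayed rectifier, had 16.

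Of the cytoplasmic beta subunits of voltage-gated potassium channels, Kcnab2 and Kcnab3 lay above every Kcna gene analysed. Such subunits bind the products of Kcna genes. Kcnab1 had 20 reads. Kcnab2 was at 1.07, 1.04 and 0.92 FPKM in Ctrl and at 0.7, 1.01 and 0.71 in HSPA1A, with a log2 fold change of -0.26 (adjusted p = 0.692, edgeR). Kcnab3 was at 0.65, 0.63 and 0.61 FPKM in Ctrl and at 0.42, 0.37 and 0.57 in HSPA1A. Its groups did not overlap, but 226 reads over 6 libraries left a 95% interval of -0.93 to 0.086 around its log2 fold change of -0.42 (adjusted p = 0.640, edgeR).

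Inward rectifiers hold the resting potential of working heart muscle. The 11 Kcnj genes analysed had 198 reads together. Kcnj2 and Kcnj12, which carry the classical inward rectifier current, had 37 and 22 reads. Kcnj3, a subunit of the acetylcholine-activated channel, and Kcnj8, a pore of the ATP-sensitive channel, had 1 read each. Kcnj15 was the only one tested, with 91 reads and a log2 fold change of -0.10 (adjusted p = 0.943, edgeR). Of the pacemaker genes analysed, Hcn2 had 37 reads and Hcn3 had 27.

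Gap junction genes were led by Gja1 (chr10:56377330-56402513, plus strand), which encodes the main connexin of ventricular and working atrial muscle and of many other tissues. Gja1 was at 42.62, 37.71 and 40.82 FPKM in Ctrl and at 33.3, 41.17 and 33.99 in HSPA1A. HSPA1A replicates 1 and 3 were below all Ctrl libraries, and replicate 2 was among them. Over all 6 libraries the log2 fold change was -0.11 (SE 0.0751, 95% interval -0.27 to 0.061, adjusted p = 0.735, edgeR). Gja1 made up 84.2% to 85.2% of the connexin FPKM in each library.

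Gjc1, the connexin of the early heart and the conduction nodes, was at 5.54, 4.78 and 5.28 FPKM in Ctrl and at 4.72, 5.05 and 4.52 in HSPA1A. The Ctrl mean of Gja1 was 7.77 times that of Gjc1, with no overlap, and the log2 fold change of Gjc1 was -0.071 (adjusted p = 0.847, edgeR). Gja5, the connexin of atrial muscle and the fast conduction fibres, was at 0.67, 0.81 and 0.79 FPKM in Ctrl and at 0.73, 0.75 and 0.69 in HSPA1A. Its log2 fold change was -0.00055, with a 95% interval of -0.28 to 0.28 (adjusted p = 0.9996, edgeR). Part of the Gja5 transcripts, 856 bases, is 99.4% identical to Zfp697 on the same strand, so reads from that stretch are uncertain.

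The connexins too rare to test had at most 32 reads each.

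Of the 35 genes chosen to stand for the known atrial currents, 27 were in the tables and the other 8 were not analysed here. Pore genes of several families are among those 8, so statements on a family cover only its genes analysed. Of the 27, 5 reached 1 FPKM (Gja1, Cacnb3, Gjc1, Cacna2d1 and Kcnk2), 11 could be tested and 16 had under 50 reads. All 5 are auxiliary subunits, connexins or background channels, and no voltage-gated pore is among them.

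The comparison of HSPA1A with Ctrl asked whether overexpression changed any of these genes. None of the 27 tested genes passed an adjusted p of 0.05 with edgeR's quasi-likelihood test, where 23 of 12827 genes (0.179%) did. At an unadjusted p under 0.05 there were 2, Kcnu1 among them, which is 7.41% of the tested channels and connexins, against 8.59% of all genes. DESeq2 also called none, where it called 0.443% of all genes, and none had an unadjusted p under 0.05 with it. The groups did not overlap, with HSPA1A lower, in 3 of 27 (Cacnb1, Kcnf1 and Kcnab3), against a background of 7.17%. They did not overlap, with HSPA1A higher, in 2 of 27, Kcnu1 among them, against 7.3%. With shares near the background, these counts are no result about the channels. Log2 fold changes ran from -0.52 to 0.89; 20 of 27 were negative, against 49.0% of all tested genes, and the median was -0.10 against 0.0029. For the 8 genes with a Ctrl mean of at least 2 FPKM, the 95% intervals lay within 0.689-fold and 1.38-fold.

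**Figure D3:**
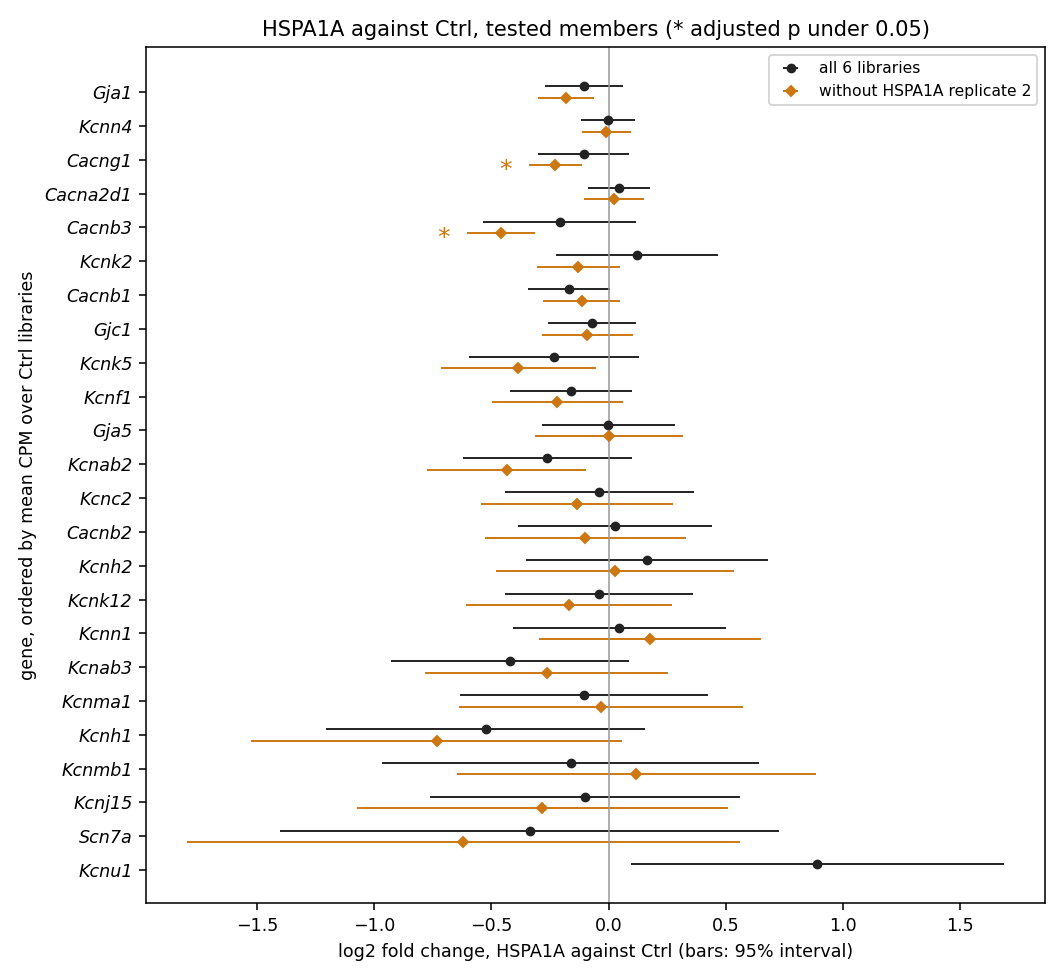
Log2 fold change of HSPA1A against Ctrl with its 95% interval for tested genes, over all 6 libraries (black) and without HSPA1A replicate 2 (orange), ordered by mean CPM in Ctrl. No gene shown passes with all libraries, and Cacng1 and Cacnb3, marked with an asterisk, pass without that replicate.

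One library decided what passed. Without HSPA1A replicate 2, 2 of 27 tested channel and connexin genes (7.41%) passed, both lower in HSPA1A, while 10.2% of all genes did (1323 of 12955). The genes that passed and were lower made up 4.94% of all genes. The channels' share lay below the background for either direction and above that for lower genes, and 2 genes are too few to tell it from either. Cacnb3 then had a log2 fold change of -0.46 (SE 0.0679, adjusted p = 0.00088, edgeR), 1.37-fold lower, and Cacng1 one of -0.23 (adjusted p = 0.0137, edgeR), 1.17-fold lower. Gja1 missed the threshold at -0.18 (adjusted p = 0.0505, edgeR). At an unadjusted p under 0.05 there were 6 of 27, against 24.8% of all genes. The median log2 fold change was -0.17, against 0.00296 for all genes. Leaving out any of the other 5 libraries gave no channel or connexin gene that passed. HSPA1A replicate 2 was singled out in these same data as the library of its group nearest to Ctrl. Leaving it out narrows the spread within HSPA1A by that choice, so the p-values without it are descriptive only.

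The same split ran through most of the abundant genes. Of the 12 with at least 1 FPKM in Ctrl, HSPA1A replicate 1 was below the Ctrl mean in 10 and replicate 3 in 11, while replicate 2 was above it in 9 and above both other HSPA1A libraries in 11. Cacnb1 was the exception. These counts were not taken over all genes. HSPA1A replicate 2 also stood apart on the leading principal component of all tested genes, so the split was not particular to the channels. The summed FPKM of all channel and connexin genes was 169.48 to 172.65 in Ctrl, 145.1 and 145.84 in HSPA1A replicates 1 and 3, and 177.89 in replicate 2.

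**Figure D4:**
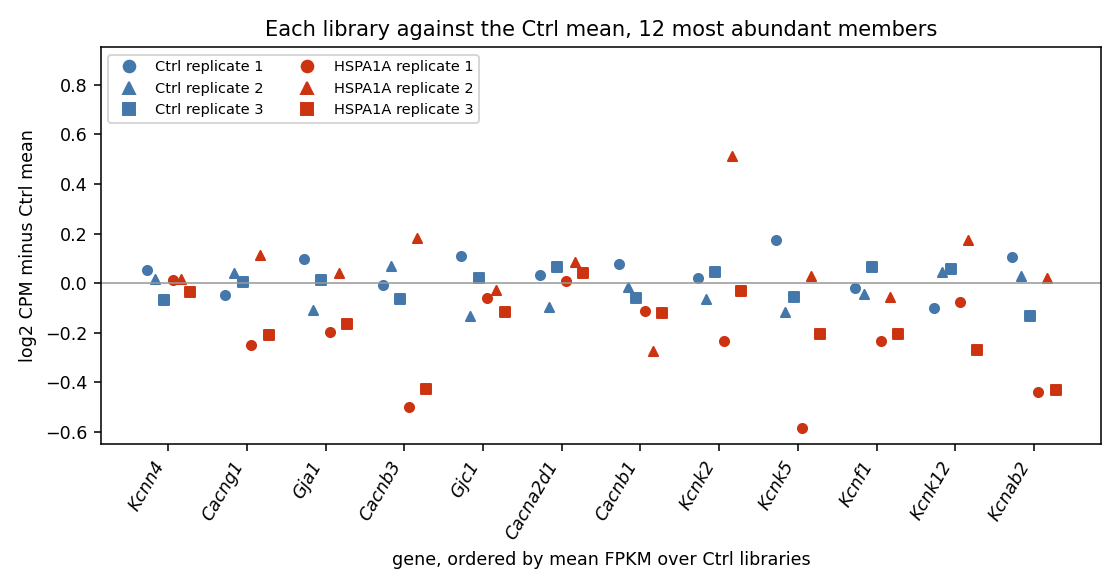
Log2 CPM of each library minus the Ctrl mean for the 12 genes with at least 1 FPKM in Ctrl. HSPA1A replicate 2 (red triangles) lies above HSPA1A replicates 1 and 3 in 11 of the 12 genes, and below both in Cacnb1.

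Some other features of the libraries moved with that split, and others did not. Summed over their marker lists, neuronal genes (3 of 5 at 1 FPKM or more) were at 80.49 to 89.68 FPKM in Ctrl, at 60.79 and 71.98 in HSPA1A replicates 1 and 3 and at 96.03 in replicate 2. Fibroblast genes (4 of 7) were at 151.57 to 155.35, then 132.18 and 133.55, then 161.8. Atrial markers (5 of 12) were at 140.56 to 143.85, then 138.47 and 121.96, then 148.16. Within that sum Tnnt2 followed the split, at 26.96 to 32.72, then 23.68 and 26.37, then 41.03. Atp2a2, its largest part, did not. It was at 83.93 to 92.04 in Ctrl and at 91.1, 80.67 and 72.42 in HSPA1A replicates 1, 2 and 3. The epithelial gene Krt19 was at 179.89 to 208.48, then 141.51 and 188.05, then 240.29, and the other epithelial markers were near 0. Yam1, an abundant transcript, took 1.18% to 1.86% of reads in Ctrl, 2.7% and 2.53% in HSPA1A replicates 1 and 3, and 1.58% in replicate 2. Smooth muscle genes (2 of 5), the list with the largest sum in Ctrl, did not follow in sum. They were at 219.86 to 229.25 in Ctrl and at 201.3, 206.93 and 186.81 in HSPA1A replicates 1, 2 and 3, all below Ctrl. Most of that sum was Des, which heart and skeletal muscle share. Acta2, the other gene at 1 FPKM or more, did follow. It was at 22.81 to 25.93 in Ctrl, then 21.73 and 19.59, then 26.53. The summed FPKM of skeletal muscle genes (1 of 4) was also lower in all HSPA1A libraries, by a narrow gap, at 1.88 to 2.12 against 2.16 to 2.52. That sum was mostly Myod1, at 1.39 to 1.68 against 1.86 to 2.15. Acta1 overlapped between the groups, and the median log2 fold change of the 2 tested genes was 0.078. The part of these features in the channel values was not tested.

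Genes outside the rule, either known to work with these channels or forming other membrane pores, were read from the same fit. Of 111 genes on 6 lists, 34 of them other pores, 98 were in the tables, 75 were tested and none passed. At an unadjusted p under 0.05 there were 7 of 75 (9.33%), against 8.59% of all genes, and the median log2 fold change was -0.012 against 0.0029.

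Of the calcium channel brakes and Stac adaptors, 4 were tested. Stac2, an adaptor that slows inactivation of calcium channels, was the most abundant at 195 CPM in Ctrl, and Stac3, needed for the skeletal muscle channel to reach the membrane, had a log2 fold change of -0.40 (unadjusted p = 0.0163, edgeR). Of 2 tested genes that modulate pores, Dpp10 and Fgf11, neither passed.

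Among 17 tested scaffolds, caveolin Cav1 had a log2 fold change of 0.20 (adjusted p = 0.411, edgeR) and the postsynaptic scaffold Dlg4 one of -0.34 (adjusted p = 0.502, edgeR). The 13 genes of the intercalated disc and gap junction included the kinase Src, at -0.16 (adjusted p = 0.470, edgeR). Among 26 other membrane pores, the ATP-gated channel P2rx7 stood at 0.25 (adjusted p = 0.516, edgeR) and the store-operated pore Orai1 at -0.24 (adjusted p = 0.517, edgeR). The 13 tested transcription factors, Shox2 among them, included none with an unadjusted p under 0.05. Without HSPA1A replicate 2, 5 of the 75 tested genes on these lists passed (6.67%), again below the 10.2% of all genes. Cav1 and P2rx7 were higher, and Dlg4, Calm3 and Src were lower.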

How the data were processed

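Polyadenylated RNA of 3 Ctrl and 3 HSPA1A libraries of HL-1 cells was sequenced. The authors deposited read counts per gene and FPKM values, and the submitters' processing notes name TopHat2, edgeR and the build GRCm38. The counter, its strand setting and the annotation were not given in the sources used here. Without strand, 13 of the 27 tested members that overlap a gene on the other strand (Cacnb1, Kcnk2 and Cacna2d1 among them) may hold its reads. Counts were fitted with edgeR 4.0.16 in R 4.3.3 (TMM, quasi-likelihood test, filterByExpr at 10 counts and 15 in total, Benjamini-Hochberg over 12827 genes, threshold 0.05), after a check on simulated data. FPKM values describe levels only. CPM values use TMM library sizes. The members and lists were chosen with earlier results of these data known. Genes were named if they passed, stood for a known atrial current, reached 1 FPKM or had 1 of the 10 smallest p-values. Up to 2 per list of genes outside the rule were named by p. Others, such as Cacna1a, Cacna1b, Kcnj15 and Stac2, were named after their values were seen. Alternatives were DESeq2 1.42.0, limma 3.58.1, other scalings and filters, a replicate block and leaving out each library. Positions and coding sequences are from GENCODE M21. Some genes that the naming rule picks are not reported here.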

Additional observations from a re-analysis of the deposited data

How the results depend on the processing

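No channel or connexin gene passed under any alternative except without HSPA1A replicate 2 (leaving out each library in turn gave 0 to 2). Over all genes, 23 passed; DESeq2 gave 68, no filter on low counts 205, limma on log2(FPKM + 1) with a mean of at least 1 FPKM 15, and leaving out each library 10 to 1323. The 12 genes at 1 FPKM in Ctrl became 19 at 0.5 FPKM, 5 at 5 FPKM and 19 when scaled to TPM of at least 1. For 21 named genes, 308 pairs of gene and setting were compared, and 286 kept direction and side of the threshold. Direction turned in 20 pairs, from 6 genes. Kcnk2, at 0.12 with all libraries, was among the 6 and turned only without HSPA1A replicate 2. The other 2 pairs (Cacnb3 and Cacng1 without HSPA1A replicate 2) newly passed. Outside that setting the lowest adjusted p of a named gene was 0.264. Log2 fold changes that turned were Cacnb2 at -0.0065 with library totals, and -0.010 and -0.029 with limma on FPKM plus 1 and plus 0.1; Cacna2d1 at -0.010, -0.012 and, with the FPKM mean filter, -0.010; and Gja5 at 0.0039 with limma-voom and 9.3e-05 with the replicate block. Leaving out each library moved Cacnb2 from -0.10 to 0.15, Cacna2d1 from -0.0023 to 0.076, Kcnk2 from -0.13 to 0.27, Gja5 from -0.071 to 0.042, Kcnn4 from -0.034 to 0.024, Kcnk12 from -0.17 to 0.059, Cacnb3 from -0.46 to -0.087 and Cacng1 from -0.23 to -0.038. The cause of these turns was not tested. With library totals, 21 of 27 members were lower in place of 20, while the share of all genes lower rose from 49.0% to 61.3%. Same-numbered replicates did not deviate together (r = -0.139, -0.033 and 0.097). With 3 libraries per group, this cannot settle whether the numbers mark a shared origin. With the replicate block, 0 channel genes and 16 genes in all passed. Depth limits the 86 untested genes, for which no change was detectable.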
